A study of Mus musculus with 9 samples.

Results

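Ribosomes are made in the nucleolus, where RNA polymerase I transcribes the ribosomal RNA precursor. Small nucleolar RNAs carried in box C/D and box H/ACA protein complexes guide its methylation and pseudouridylation, and large sets of assembly factors cut and fold it into the small and large subunits. The genes of this machinery are known to be raised together in growing and dividing cells, and the transcription factor Myc is a known activator of many of them. The genes described here are given by name, as a list drawn up with earlier results of these data known: 36 RNA polymerase I, snoRNP and assembly factors, of which 35 have a row among the 18423 genes of the table. Noc2l, the other gene listed, was not analysed here.

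Poly(A) RNA was sequenced from glands scraped from the mouse stomach corpus, in 3 genotypes with 3 libraries each. Arid1a_Het mice carried Atp4bCre, Rosa26NICD and Arid1aflox/+, that is, Cre recombinase driven by a proton pump gene of parietal cells, a Rosa26 allele for the active intracellular domain of Notch (NICD), and 1 of the pair of Arid1a copies flanked by loxP sites. Ctrl mice carried Atp4bCre and Rosa26NICD, so that the transgene is shared by Arid1a_Het and Ctrl, and WT mice were wild type. Where corpus bore tumours the glands came from there, and otherwise from the equivalent area; they hold every cell type of the gland, of which Cre under Atp4b acts in parietal cells. Ctrl against WT addresses what differs with Atp4bCre and NICD together, which these groups cannot tell apart. Arid1a_Het against Ctrl addresses what differs with the floxed copy of Arid1a, a subunit of the BAF chromatin remodelling complex. Whether a genotype's libraries are from different animals is not stated, and its p-values reflect the scatter of those libraries, some of which may be technical. No ages are given.

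Values are FPKM, that is, fragments per unit of transcript length and of sequencing depth, and libraries held 22651385 to 29478481 reads in genes. Arid1a stood at 8.94, 5.90 and 6.96 FPKM in Arid1a_Het libraries, against 14.9, 13.3 and 16.2 FPKM in Ctrl libraries and 13.5, 7.79 and 12.0 FPKM in WT libraries. The Arid1a_Het and Ctrl values do not overlap (exact two-sided permutation p = 0.1, the smallest that 3 against 3 libraries can give), whereas Arid1a_Het overlaps WT (exact permutation p = 0.2). The parietal markers Atp4a and Atp4b and the chief cell marker Pgc were present in every library. Libraries differed in makeup: Pgc, which encodes pepsinogen C, took 3.34, 17.9 and 1.89% of all FPKM in Arid1a_Het libraries 1, 2 and 3, 1.49, 4.91 and 1.84% in Ctrl libraries, and 2.99, 16.5 and 8.38% in WT libraries. Exocrine pancreas markers summed to 1591 FPKM in Arid1a_Het 3 and 4149 FPKM in Ctrl 1, against 81.3 to 329 FPKM in the other 7. In those 7 the sum was mostly Cela1, at 79.4 to 324 FPKM. Cpa1 was at 0 in them, against 77.5 FPKM in Arid1a_Het 3 and 148 FPKM in Ctrl 1.

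In Ctrl glands, which carry Atp4bCre and NICD, all 35 nucleolar genes had a mean above that of WT glands. The median log2 fold change was 0.66, beside 0.24 for all 11209 tested genes, and 71.3% of tested genes also lay above 0. Per library, the mean of log2(FPKM + 1) over the 35 genes was 4.15, 4.10 and 4.17 in Ctrl and 3.71, 2.97 and 3.80 in WT, with no overlap. Single genes seldom passed the test: 1 of 35, Ppan, rose at an adjusted p under 0.05 and 0 fell, where 7.01% of all tested genes were called higher and 3.04% lower (limma, Benjamini-Hochberg over all genes tested). Another 19 had an unadjusted p under 0.05, so that 20 of 35 did, beside 23.7% of all genes higher at that level. In 29 of the 35 the lowest Ctrl library stood above the highest WT library, a pattern that 33.5% of tested genes also show. The exceptions were Polr1a, Polr1c, Fbl, Ncl, Rrp12 and Bop1. Sorted by fold change among all tested genes, the genes had a median percentile of 82.2, and 24 of 35 were in the upper 25%.

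A single WT library weighs on this difference. WT 2, the WT library richest in Pgc, was the lowest of all 9 libraries for 34 of the 35 genes, and without it the median fell to 0.36 beside 0.11 for all genes, with 34 above 0 and 0 called, where 2.67% of all genes were called higher. Deviations of same-numbered Ctrl and WT libraries correlated weakly (0.207, 0.336 and 0.138), and the labels do not give the numbers as pairs. Between same-numbered Arid1a_Het and Ctrl libraries the correlations were -0.151, 0.467 and -0.0202. With the number nonetheless taken as a block over all 9 libraries, 16 of 35 rose and 0 fell. Beside that, 16.1% of all genes were called higher and 5.97% lower (limma). Whether the block is apt cannot be told from the labels. Those 16 were Ppan, Rrp1b, Gnl3, Nop56, Nop2, Rrp9, Rrs1, Wdr43, Heatr1, Ftsj3, Noc4l, Gar1, Polr1b, Npm1, Npm3 and Utp20. Scaling by the median ratio to all genes lowered the median of all genes by 0.22, to 0.01, and that of the nucleolar genes to 0.40, with 33 above 0, Polr1a and Rrp12 below, and 1 called higher (5.42% of all genes). With scaling and block together 13 rose (9.88% of all genes), and with array weights, which weigh down libraries far from their group, 24 (35.7% of all genes). The estimate of those weights stopped before it reached its convergence tolerance, so that count is uncertain. With median-ratio scaling alone the calls over all genes were 608 higher and 587 lower, against 786 and 341 on values as deposited.

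**Figure D1:**
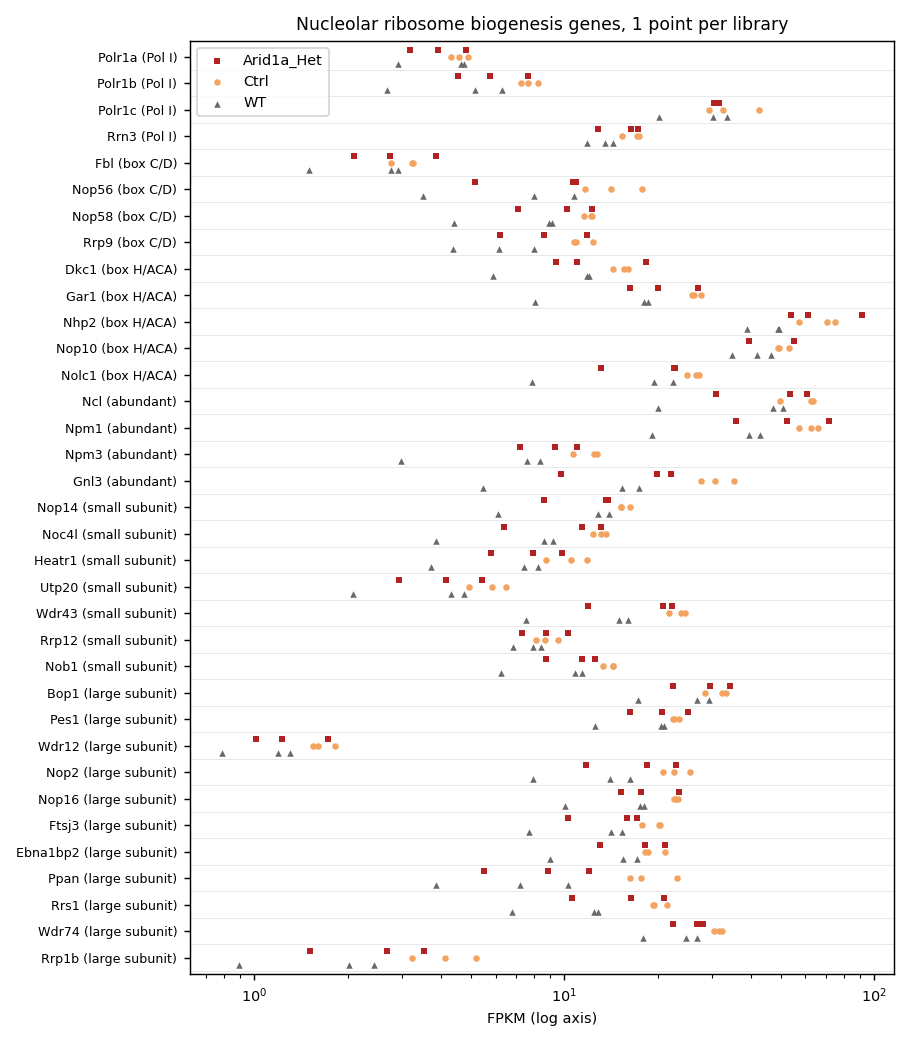
FPKM of the 35 nucleolar genes, 1 row per gene and 1 point per library, on a log axis, grouped by role (Pol I, RNA polymerase I). Squares are Arid1a_Het, circles Ctrl and triangles WT libraries. In 29 rows the Ctrl circles lie to the right of all WT triangles, and the leftmost point is WT 2 in 34 rows.

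Cell makeup differed between the groups as well. The 10 cell cycle markers summed to 134, 70.6 and 139 FPKM in Arid1a_Het libraries, 170, 160 and 161 FPKM in Ctrl libraries and 158, 31.4 and 99.8 FPKM in WT libraries, with 0 of 10 called in Ctrl against WT. Of 11 tested parietal markers 6 fell in Ctrl, and their sum was 667 to 5923 FPKM in Arid1a_Het, 463 to 1534 FPKM in Ctrl and 3052 to 15038 FPKM in WT; the list includes Gif, which chief cells make in the mouse. Of 6 markers of neck and metaplastic cells 3 rose, with sums of 8302 to 16658 FPKM in Arid1a_Het, 11893 to 20251 FPKM in Ctrl and 5798 to 11606 FPKM in WT. None of the markers in these 3 lists was at 0 in any library. Of 6 enteroendocrine markers 4 fell in Ctrl, Sst, Ghrl, Chga and Syp, with sums of 49.1 to 163 FPKM in Arid1a_Het, 56.9 to 119 FPKM in Ctrl and 517 to 641 FPKM in WT, and none was at 0. Of 6 squamous markers 2 rose, Sprr1a and Ivl, with sums of 199 to 721 FPKM in Arid1a_Het, 252 to 755 FPKM in Ctrl and 46.0 to 218 FPKM in WT, and Krt6a was at 0 in WT 3. In the other marker lists 1 of 8 tested leukocyte genes, Coro1a, rose, 1 of 5 pit cell genes, Muc5ac, fell, and 0 were called among 4 chief cell, 4 exocrine pancreas, 6 fibroblast and muscle and 1 endothelial genes. The part of cell makeup in the nucleolar result was not tested, and in bulk glands more cells of a type and more RNA per cell cannot be told apart.

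**Figure D2:**
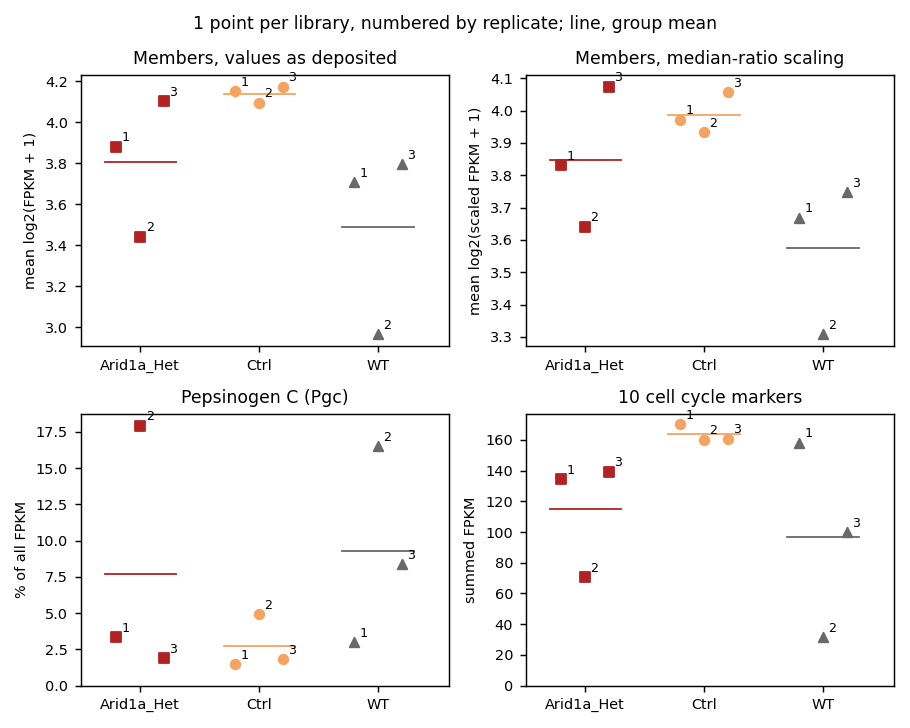
Each panel has 1 point per library, numbered by replicate, with the group mean as a line, for Arid1a_Het, Ctrl and WT. The panels give the mean log2 level of the 35 genes as deposited and after median-ratio scaling, the percent of FPKM from Pgc, and the summed FPKM of 10 cell cycle markers. The level is lowest in WT 2, at 2.97 as deposited, the library with 16.5% Pgc and 31.4 FPKM of cell cycle markers.

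RNA polymerase I was represented by Polr1a and Polr1b, its catalytic pair of large subunits, Polr1c, a subunit shared with RNA polymerase III, and Rrn3, which recruits the enzyme to its promoter. Polr1b had 5.77, 4.54 and 7.61 FPKM in Arid1a_Het libraries, 7.64, 7.24 and 8.25 FPKM in Ctrl libraries and 5.15, 2.68 and 6.28 FPKM in WT libraries. All Ctrl values of Polr1b stood above WT, with a log2 fold change of 0.67 (SE 0.26, adjusted p = 0.121 by limma). Polr1a and Polr1c overlapped between Ctrl and WT, with log2 fold changes of 0.15 and 0.32. Rrn3 averaged 16.6 ± 1.12 FPKM in Ctrl and 13.2 ± 1.26 FPKM in WT (SD, n = 3 each), without overlap and with a log2 fold change of 0.31. The 4 genes had the lowest median of the 6 role classes, 0.32.

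The box C/D particle, which methylates ribosomal RNA, holds the methyltransferase Fbl and the scaffold pair Nop56 and Nop58, and Rrp9 is the U3-specific protein of the particle that acts in early cleavage. Rrp9 had 8.60, 6.19 and 11.8 FPKM in Arid1a_Het libraries, 10.9, 10.8 and 12.4 FPKM in Ctrl libraries and 6.16, 4.39 and 7.98 FPKM in WT libraries. Its log2 fold change in Ctrl against WT was 0.81 (SE 0.25, adjusted p = 0.065 by limma). Nop56 was at 10.7, 5.15 and 10.9 FPKM in Arid1a_Het, 14.1, 11.7 and 17.8 FPKM in Ctrl and 7.98, 3.51 and 10.7 FPKM in WT, so that the lowest Ctrl value lay just above the highest WT value. The corresponding log2 fold change was 0.97 (SE 0.37, adjusted p = 0.115), that of Nop58 0.68, and that of Fbl 0.29 with overlapping groups. Fbl was the second lowest of the 35 by mean, at 2.79 FPKM over 9 libraries; 5 of the genes, Fbl, Nop56, Npm1, Npm3 and Pes1, share over 15% of their 50-base words with other genes, and their levels are uncertain where reads with several matches were dropped.

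Box H/ACA particles convert uridine to pseudouridine. They hold the pseudouridine synthase Dkc1, mutated in human dyskeratosis congenita, with Gar1, Nhp2 and Nop10, and Nolc1 is a chaperone of both kinds of particle. All 5 genes were higher in Ctrl than in WT without overlap, as were 33.5% of all tested genes. Gar1 had 20.1, 16.2 and 27.0 FPKM in Arid1a_Het libraries, 25.9, 27.7 and 26.3 FPKM in Ctrl libraries and 18.0, 8.04 and 18.6 FPKM in WT libraries, a log2 fold change of 0.88 in Ctrl against WT (SE 0.30, adjusted p = 0.086). Nhp2, the highest of the 35 by mean FPKM, stood at 61.2, 53.8 and 91.5 FPKM in Arid1a_Het, 70.2, 74.5 and 57.3 FPKM in Ctrl and 49.1, 38.8 and 48.8 FPKM in WT. It was the gene with the least difference between Arid1a_Het and Ctrl, at 0.00 (SE 0.21), while 0.55 separated Ctrl from WT (SE 0.21, adjusted p = 0.114). Dkc1 and Nolc1 had log2 fold changes of 0.64 and 0.75, and Nop10 0.30. Nop10 was the gene whose lowest library was not WT 2: it had 46.4 FPKM there, against 34.7 FPKM in WT 1.

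Among the abundant nucleolar proteins, Npm1 (nucleophosmin) is a histone-binding chaperone of the granular nucleolus and Npm3 is a protein of its family. Ncl (nucleolin) binds ribosomal RNA precursors, and Gnl3 (nucleostemin) is a GTP-binding protein known from stem and tumour cells. These 4 had the highest median of the classes in Ctrl against WT, 0.92. Npm1 had 52.5, 35.9 and 71.3 FPKM in Arid1a_Het libraries, 62.3, 65.6 and 57.2 FPKM in Ctrl libraries and 42.9, 19.2 and 39.5 FPKM in WT libraries, with a log2 fold change of 0.92 (SE 0.32, adjusted p = 0.091). Ncl stood at 53.4, 31.0 and 60.8 FPKM in Arid1a_Het, 63.3, 62.6 and 49.5 FPKM in Ctrl and 50.7, 20.1 and 47.2 FPKM in WT. Ctrl and WT overlapped for Ncl, at a log2 fold change of 0.66 (SE 0.36, adjusted p = 0.22). Gnl3 had 22.2, 9.76 and 19.9 FPKM in Arid1a_Het, against 30.7, 27.6 and 35.3 FPKM in Ctrl and 15.3, 5.45 and 17.5 FPKM in WT. Every Ctrl value of Gnl3 lay above every value of the other 6 libraries. The ratio of its means was 2.44 in Ctrl against WT, with a log2 fold change of 1.36 (SE 0.41) that missed the threshold (adjusted p = 0.064).

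Small subunit assembly was covered by 7 genes: the processome components Heatr1, Utp20, Wdr43, Nop14 and Noc4l, the export and maturation factor Rrp12, and Nob1, the endonuclease that makes the final cut of 18S ribosomal RNA. Wdr43 had 20.8, 11.9 and 22.2 FPKM in Arid1a_Het libraries, 24.6, 21.8 and 23.7 FPKM in Ctrl libraries and 15.1, 7.52 and 16.1 FPKM in WT libraries. The Ctrl and WT values did not overlap, at a log2 fold change of 0.88 (SE 0.30, adjusted p = 0.088). Noc4l followed at 0.85, and Heatr1, Utp20, Nob1 and Nop14 had log2 fold changes of 0.54 to 0.66. All were without overlap, as were 33.5% of all tested genes. Rrp12 differed least of the class, with 8.77 ± 0.738 FPKM in Ctrl and 7.72 ± 0.80 FPKM in WT (SD, n = 3 each), which overlap. The median of the 7 was 0.56.

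Large subunit assembly was the largest class, with 11 genes, among them the Pes1, Bop1 and Wdr12 complex needed to process the 28S precursor, the ribosomal RNA methyltransferase Nop2, and Ppan, the mouse counterpart of yeast Ssf1. Ppan lies at chr9:20888175-20892178 on the plus strand of GRCm38. It had 12.0, 5.50 and 8.87 FPKM in Arid1a_Het libraries, 17.7, 16.3 and 23.1 FPKM in Ctrl libraries and 7.17, 3.87 and 10.3 FPKM in WT libraries. All 3 Ctrl libraries lay above the 6 others, and Arid1a_Het and WT were intermixed. In Ctrl against WT Ppan rose by a log2 of 1.37 (SE 0.34, adjusted p = 0.035 by limma), a ratio of means of 2.67. The call was lost when any Ctrl library was left out, or WT 1 or WT 2, at adjusted p = 0.0588 to 0.135, with log2 fold changes of 1.04 to 1.47.

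Rrp1b and Rrs1 came next in this class. Rrp1b had 2.68, 1.51 and 3.52 FPKM in Arid1a_Het, 4.12, 3.22 and 5.19 FPKM in Ctrl and 2.02, 0.893 and 2.43 FPKM in WT (log2 fold change 0.92 in Ctrl against WT, SE 0.29, adjusted p = 0.072). Rrs1 was at 16.5, 10.6 and 20.96 FPKM in Arid1a_Het, 19.4, 19.4 and 21.4 FPKM in Ctrl and 12.8, 6.79 and 12.5 FPKM in WT (0.90, SE 0.28, adjusted p = 0.068). In both genes the Ctrl and WT libraries were separate. Nop2, with 22.6, 20.7 and 25.5 FPKM in Ctrl and 14.0, 7.91 and 16.2 FPKM in WT, had a log2 fold change of 0.85. The Pes1, Bop1 and Wdr12 trio had 0.36, 0.38 and 0.35, close together and nearer to the median of all genes, and Wdr12 was the lowest of the 35 in level, at 1.36 FPKM on average. Nop16, Ftsj3, Ebna1bp2 and Wdr74 lay from 0.44 to 0.66.

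**Figure D3:**
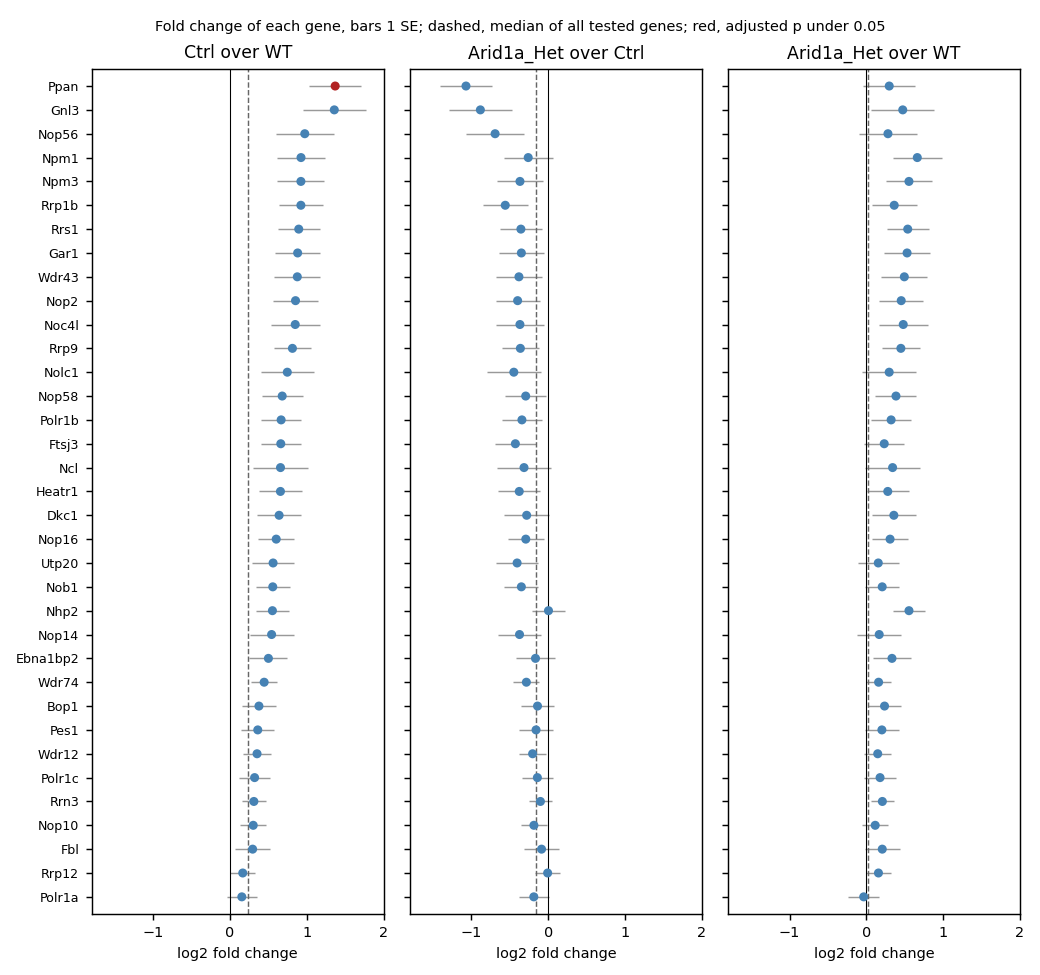
Log2 fold change of each of the 35 genes in Ctrl over WT, Arid1a_Het over Ctrl and Arid1a_Het over WT, with bars of 1 SE from limma, sorted by the first panel. The dashed line is the median of all tested genes (0.24, -0.16 and 0.02). Ppan in Ctrl over WT is the point past the adjusted threshold, and Ppan, Gnl3 and Nop56 have the lowest values in Arid1a_Het over Ctrl.

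Between Arid1a_Het and Ctrl 0 of 35 genes passed the test in either direction, and over all genes 0% were called higher and 0.00892% lower. Fold changes lay below 0 for 34 of 35 (72.5% of all genes), with Nhp2 at 0.00, and the median was -0.34 beside -0.16 for all genes. 1 gene had an unadjusted p under 0.05, beside 10.5% of all genes lower at that level. In 8 genes, Nop56, Nolc1, Gnl3, Nop14, Nob1, Ftsj3, Ppan and Wdr74, the highest Arid1a_Het library stood below the lowest Ctrl library, as it did in 22.2% of all genes. Ppan had the lowest fold change, -1.07 (SE 0.34, adjusted p = 0.395), then Gnl3 at -0.88 (SE 0.41) and Nop56 at -0.69 (SE 0.37). Median-ratio scaling raised the median of all genes by 0.18 and left 26 of the 35 below 0 and 9 above. The Arid1a_Het libraries were spread, with mean log2 levels of 3.88, 3.44 and 4.10 against 4.15, 4.10 and 4.17 in Ctrl; Arid1a_Het 2 was the Pgc-rich library, and without it the median was -0.13 beside -0.09 for all genes. Arid1a_Het 3 was the highest of all 9 libraries for 9 of the genes.

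Arid1a_Het against WT also gave 0 calls among the 35, where 2.06% of all genes were called higher and 0.687% lower. The median log2 fold change was 0.30 beside 0.02 for all genes, and 34 genes lay above 0 (53.4% of all genes). Nhp2 was the gene whose groups did not overlap, with a log2 fold change of 0.56 (SE 0.21, adjusted p = 0.213); 10.6% of all genes were higher without overlap. Npm1 had the highest fold change, 0.66 (SE 0.32, adjusted p = 0.332). Without WT 2 the median was 0.04 and 21 of 35 lay above 0. The comparisons share libraries, so values of a gene in them are not independent of one another.

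Genes of the same machinery outside the 35 were counted in Ctrl against WT in the same fit, in which 7.01% of all tested genes were called higher. Of 14 other RNA polymerase I factors 2 rose: Taf1d, a promoter factor, at 0.93 (SE 0.24, adjusted p = 0.044) and Cd3eap, a polymerase subunit, at 0.68 (SE 0.19, adjusted p = 0.049). The call of Taf1d was lost under 13 of 23 alternatives and that of Cd3eap under 16 of 23, in both without any one Ctrl or WT library, and 0 of the 14 rose with median-ratio scaling or limma voom. Among 49 other large subunit factors 3 rose, namely Nle1 at 1.07, Las1l at 1.16 and Mrto4 at 0.80, at adjusted p = 0.032, 0.046 and 0.044, a share near that of all genes. Their calls were lost under 7, 10 and 14 of 23 alternatives, each of them without any one Ctrl library, WT 1 or WT 2. None of 40 other small subunit factors, 17 other snoRNP and rRNA modification factors, 14 subunits and cofactors of the RNA exosome and 7 chaperones and export factors passed; the lowest adjusted p were 0.052 for Pwp2, 0.062 for Nufip1, 0.098 for Exosc2 and 0.103 for Grwd1. Medians of these lists ran from 0.36 for the exosome to 0.56 for the large subunit factors, and no gene of them fell. With the replicate number as a block 4 of the RNA polymerase I factors, 23 of the large and 7 of the small subunit factors, 6 of the snoRNP factors, 5 of the exosome and 2 of the chaperones rose, where 16.1% of all tested genes did; the small subunit share is near that. Leaving out 1 library at a time moved the large subunit count between 0 and 9.

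Cytosolic ribosomal proteins, the products assembled by these factors, had 5 of 65 tested genes higher, among them Rpl12, Rpl36 and Rps12, with log2 fold changes of 1.11, 1.02 and 1.23, and Rpl10 at 0.88, named after its value was seen. That share is near the 7.01% of all tested genes, and the count was 0 to 7 leaving out 1 library and 1 with limma voom. The median was 0.42, and 22 of 65 were higher in Ctrl without overlap, near the 33.5% of all tested genes. Many of these genes have near-identical copies, and Rpl12 was listed at 0.317 to 2.89 FPKM, so their levels are uncertain. Rpl12 was tested in only 18 of the 23 alternatives, since it stood near the FPKM filter. A gene there can pass the filter through its higher group alone, so the Rpl12 call carries little weight. Myc had 17.2, 9.94 and 16.9 FPKM in Arid1a_Het libraries, 22.8, 23.9 and 25.6 FPKM in Ctrl libraries and 11.8, 5.53 and 9.89 FPKM in WT libraries. All Ctrl values of Myc lay above the other 6, and it rose in Ctrl against WT by 1.37 (SE 0.28, adjusted p = 0.019), a call lost without any one Ctrl library or WT 3 (adjusted p = 0.051 to 0.078). It was the single gene called among 12 of the Myc network, and Mxi1, a repressor that competes for Max, fell with the block (log2 -0.46, adjusted p = 0.044) but not without it (adjusted p = 0.066). In Arid1a_Het against Ctrl 0 genes of these 8 lists were called.

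**Figure D4:**
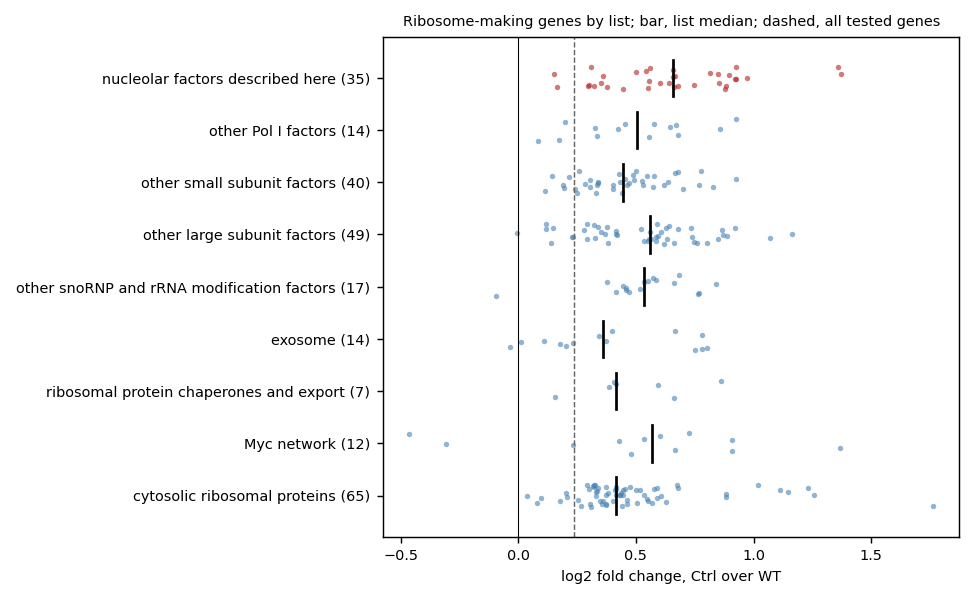
Log2 fold change in Ctrl over WT of each tested gene of the 35 nucleolar factors (top row) and of 8 further lists, with the number of genes in brackets. The bar is the list's median and the dashed line the median of all tested genes (0.24). The median is 0.66 in the top row and 0.36 to 0.57 in the other rows.

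Myc and related factors bind the E-box CACGTG, so the promoters of the genes were searched for it (RefSeq, GRCm38.p6, 250 bases before to 50 after the start; the motif reads the same on both strands). Of 30 genes with a promoter sequence, 5 held it (16.7%), Nop2, Pes1, Rrn3, Utp20 and Wdr43, as did 12.0% of 8726 tested genes. Before the start it stood in Nop2 and Rrn3 (6.67%, beside 10.1% of the tested genes). The 100 bases before the start are shown for these 2, with the motif in capitals, and for Ppan, the called gene, in which it is not found; they lie on the plus strand at chr6:125131783-125131882 (Nop2), chr16:13780599-13780698 (Rrn3) and chr9:20888075-20888174 (Ppan). A match of letters is a description and shows no binding.
Nop2: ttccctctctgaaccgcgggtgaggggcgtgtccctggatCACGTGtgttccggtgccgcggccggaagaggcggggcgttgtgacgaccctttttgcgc
Rrn3: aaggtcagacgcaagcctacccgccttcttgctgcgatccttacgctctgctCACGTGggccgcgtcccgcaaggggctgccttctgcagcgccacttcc
Ppan: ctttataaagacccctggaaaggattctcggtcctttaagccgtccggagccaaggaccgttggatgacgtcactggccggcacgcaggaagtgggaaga

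7 of the genes are also hosts of small RNAs, which are cut from their introns: Nop56, Nop58, Dkc1, Ncl, Gnl3, Wdr43 and Ppan, with 21 snoRNA loci and 1 microRNA locus inside them (GENCODE M21). The hosts had a median log2 fold change of 0.88 in Ctrl against WT, the other 28 genes 0.56. Of the 22 loci 11 are in the table, with 0 to 18 reads each per library, and 5 were tested. 2 rose in Ctrl against WT, where 7.01% of all tested genes did: Snord69 inside Gnl3 and Snord57 inside Nop56. The filter, an FPKM of 1 in 3 libraries, was met by these 2 loci only through their Ctrl values. Outside Ctrl, Snord69 reached it in WT 1 and WT 3 (1.08 FPKM in each) and Snord57 in Arid1a_Het 1 (1.94 FPKM) and WT 1 (2.99 FPKM). Their calls are thus no separate support for a rise in Ctrl. Both are box C/D RNAs and are shown with box D (CTGA) in capitals, and for Snord69 also box C (TGATGA), letters not found in the Snord57 locus. Snord69 lies at chr14:31014287-31014366 on the minus strand and Snord57 at chr2:130278016-130278087 on the plus strand of GRCm38.
Snord69: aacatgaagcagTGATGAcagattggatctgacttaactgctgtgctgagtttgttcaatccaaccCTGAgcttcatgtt
Snord57: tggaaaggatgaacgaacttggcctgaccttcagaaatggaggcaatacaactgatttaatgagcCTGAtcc

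Snord69 held 2, 0 and 1 reads in Arid1a_Het libraries, 9, 6 and 18 reads in Ctrl libraries and 2, 1 and 2 reads in WT libraries, a log2 fold change of 1.65 in Ctrl against WT (SE 0.36, adjusted p = 0.024 by limma). Snord57 held 4, 1 and 2 reads in Arid1a_Het, 9, 8 and 15 reads in Ctrl and 5, 1 and 1 reads in WT (1.60, SE 0.41, adjusted p = 0.040). In both, all Ctrl libraries lay above all others, at counts of at most 18 reads. These calls were lost under 10 of 22 alternatives for Snord69 and 13 of 22 for Snord57, limma voom on reads among them (adjusted p up to 0.093 and 0.149). Both loci overlap annotated exons of their hosts, so a read there may belong to the snoRNA or to host RNA that keeps the intron. For Fbl, Nop56, Nop58 and Nob1 the length that the deposited FPKM imply is over 2 times that of the principal transcript, which lowers their FPKM against that of other genes.

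Across the 9 libraries the genes moved closely together. The median Pearson r between pairs was 0.92 over 595 pairs on log2(FPKM + 1), beside 0.25 for all tested genes, and 0.79 after median-ratio scaling. These values are a description, since all pairs share the same libraries, their makeup and the low WT 2. Of the 35, 29 had r over 0.9 with the mean of the others, and Nop10 had the lowest r, 0.41, then Rrp12 at 0.64. The 5 genes outside the lists most like the mean of the 35 were Mybbp1a (r = 0.996), Farsa, U2af2, Wdr5 and Rpp30 (r = 0.991 to 0.995, n = 9 libraries each). Of all tested genes 11.9% had r over 0.9 with that mean, and their median r was 0.62. After median-ratio scaling 20 of the 35 had r over 0.9 with the mean of the 35, beside 2.73% of all tested genes. Mybbp1a, which encodes a Myb-binding nucleolar protein, stood at 30.7, 18.8 and 34.99 FPKM in Arid1a_Het, 38.0, 34.5 and 41.0 FPKM in Ctrl and 24.6, 10.8 and 27.0 FPKM in WT.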

How the data were processed

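The deposited table holds FPKM values made by the authors; the submitters' processing notes name STAR 2.4.2a, GRCm38 and mm10, libraries were stranded mRNA per the labels' protocols, and the counting tool, its use of strand and of reads with several matches are not given in the sources used here. Whole reads were recovered from the FPKM steps (within 0.01) for depth and one alternative. Genes reaching an FPKM of 1 in 3 or more libraries (11209; 7214 left out) were tested with limma 3.58.1 in R 4.3.3 on log2(FPKM + 1), so fold changes of low genes are understated, with 9 libraries in 1 fit of 3 group means, eBayes with trend and Benjamini-Hochberg adjustment over all genes. Called means an adjusted p under 0.05. The fit was tested on simulated data with independent noise in each gene and library. Such data hold no effect shared by the genes of a library, so that test does not bear on the calls made here.

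Same-numbered Ctrl and WT libraries had weakly correlated deviations (0.207, 0.336 and 0.138). The labels do not give the numbers as pairs. The main fit held no pairing, and the replicate block was used only in alternatives. For Arid1a_Het the correlations were -0.151, 0.467 and -0.0202 with Ctrl and 0.252, 0.563 and -0.279 with WT.

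Members, lists and tests were chosen with earlier results of these data known. Full values are given for called genes, the gene of lowest p in each role class and the 3 of highest mean FPKM, plus Nop56, Rrp1b and Rrs1, added after their values were seen. Of each further list, up to 4 genes of lowest p were eligible. Annotation was GENCODE M21, and Python 3.11.15 was used. Alternatives numbered 23, of which 3 were added after seeing the data.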

Additional observations from a re-analysis of the deposited data

How the results depend on the processing

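Limits: 3 libraries a group, 1 WT library (WT 2) that is lowest for nearly all genes, and unequal gland makeup limit the precision, at 93 to 18820 reads per gene and library. The count of nucleolar genes higher in Ctrl against WT (1, beside 7.01% of all genes) was 0 without a filter and without Ctrl 1 and Arid1a_Het 3. It was 3 with quantile normalization (568 of 11209 tested genes) and 3 with only the 2 groups compared. The count was 24 with array weights (35.7% of all genes), whose estimate did not reach its convergence tolerance. With the replicate block it was 16 (16.1% of all genes). In alternatives chosen after seeing the data it was 13 with median-ratio scaling and the block (9.88% of all genes) and 5 without WT 2 and Arid1a_Het 2. Over the 9 fits that leave out 1 library it was 0 to 5, while 209 to 1068 of all genes were higher. It was 0 without Ctrl 1, 2 or 3, WT 1 or WT 2, 5 without Arid1a_Het 2 and 2 without Arid1a_Het 3. Counts with no share beside them were not set against all genes, so they show no change particular to the nucleolar genes. The replicate block changed no count of nucleolar genes in the other comparisons, and 0 were called lower in any fit of any comparison. The difference in mean log2 level of the genes kept its sign, at 0.39 to 0.80 in Ctrl against WT (main 0.65), -0.48 to -0.14 in Arid1a_Het against Ctrl (-0.33) and 0.06 to 0.50 in Arid1a_Het against WT (0.32).

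Over all genes in Ctrl against WT, 786 were higher and 341 lower. The higher count was 497 at a minimum FPKM of 5, 4006 with array weights, 1804 with the block, 429 without Ctrl 1 and Arid1a_Het 3, 491 with median-ratio scaling without WT 2 and Arid1a_Het 2, and 209 to 1068 leaving out 1 library. The lower count was 587 with median-ratio scaling, 703 with quantile normalization, 1704 with array weights, 669 with the block, 1373 with both scaling and block, 145 without Ctrl 1 and Arid1a_Het 3, 206 without WT 2 and Arid1a_Het 2, and 42 to 405 leaving out 1 library. In Arid1a_Het against Ctrl 0 were higher (1 with only the 2 groups, array weights, or scaling and block; 0 to 2 leaving out 1 library) and 1 lower (0 with a pseudocount of 0.1, limma voom, or scaling without WT 2 and Arid1a_Het 2; 2 at a minimum FPKM of 5, with quantile normalization, the block, or scaling and block; 4 without a filter or with only the 2 groups; 6 with array weights; 7 without Ctrl 1 and Arid1a_Het 3; 0 to 20 leaving out 1 library). In Arid1a_Het against WT 231 were higher (95 without a filter, 89 with only the 2 groups, 787 with array weights, 445 with the block, 388 with scaling and block, 97 without Ctrl 1 and Arid1a_Het 3, 354 without WT 2 and Arid1a_Het 2, 354 with scaling as well, 78 to 532 leaving out 1 library) and 77 lower (45, 44 at a minimum FPKM of 5, 16, 597, 246, 246 and 17 in the same settings, 11 to 194 leaving out 1 library).

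Of the 35 genes, 8 changed sign in Arid1a_Het against Ctrl with median-ratio scaling, with and without the block, 5 with quantile normalization, 14 scaled without WT 2 and Arid1a_Het 2, 4 without Arid1a_Het 2, with or without WT 2, and at most 2 elsewhere. In Arid1a_Het against WT 13 did so without WT 2, 5 with array weights and at most 2 elsewhere. In Ctrl against WT it was at most 4 in any setting, 5 genes in all. Polr1a was at -0.058 with median-ratio scaling, with and without the block, -0.16 with quantile normalization, -0.028 without WT 2, with or without Arid1a_Het 2, and -0.13 with scaling without both (-0.03 to 0.25 leaving out 1 library). Rrp12 was at -0.073 with scaling, with and without the block, -0.10 with quantile normalization and -0.017 scaled without WT 2 and Arid1a_Het 2. Fbl was at -0.033 with quantile normalization and -0.00099 scaled without both libraries, Wdr12 at -0.0049 with quantile normalization, and Polr1c at -0.0047 scaled without both. Among the genes of that last setting in Arid1a_Het against Ctrl, Npm1 was at 0.10. The cause was not tested.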
